A study of Mus musculus with 8 samples.

Results

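Liver spots of the fetal mouse diaphragm are described here, as they were found in the first of the control sections at E18.5, shortly before birth (E18.5 control 1). They were chosen by the summed UMIs (unique molecular identifiers, 1 per captured probe pair) of *Alb*, *Ahsg*, *Fga*, *Fgb* and *Apoa1*, 5 genes for proteins that hepatocytes secrete into the blood. A spot with at least 1000 UMIs was called a liver spot when these genes together held at least 50 of every 10000 UMIs. The rule found 67 of the 3460 spots kept in this section, which is 1.94% (exact Clopper-Pearson 95% interval 1.5 to 2.45%), among 12703 kept spots in the series. Intervals, here and below, cover counting error only, because the spots of 1 section are not replicates.

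The study profiled flat sections of embryonic diaphragm by Visium spatial transcriptomics, in which tissue fixed in paraformaldehyde and embedded in paraffin lies on an array of spots spaced 100 μm apart and is read with probes for 19465 genes. It comprised 8 sections: E14.5 controls 1 to 3, E18.5 controls 1 and 2, a CaV1.1 KO (CaV1.1 -/-, also called dysgenic) at E14.5 and another at E18.5, and a β-cat cKO at E18.5. CaV1.1 is the voltage-gated calcium channel that skeletal muscle needs for contraction, and its loss is constitutive in the KO. In the β-cat cKO, HSA-Cre, which is driven by a skeletal actin promoter, removed floxed β-catenin from muscle fibers. Controls kept at least 1 working allele of each of these genes, so a control may be heterozygous. Each mutant group is 1 section, and the sex and litter of the embryos were not given in the sources used here. E18.5 control 1 held 82859104 UMIs, with a median of 22900 per spot over all its spots.

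The liver lies directly under the diaphragm and is joined to it by ligaments and at its bare area. Hepatocytes make most plasma proteins, including albumin, fibrinogen and the apolipoproteins, and handle glucose, lipids and nitrogen. Before birth the liver is also the main site of blood formation, where erythroblasts and neutrophil precursors mature among the hepatocytes, whereas several hepatocyte enzymes are switched on only around birth.

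Promoters of the genes in the rule are shown because these genes together define the liver spots. Of the 5 genes, *Alb* (chromosome 5), *Fga* and *Fgb* (both chromosome 3) hold a motif of HNF1, a transcription factor of hepatocytes, within 100 bases before their RefSeq start. The motif was searched as GTTAAT on both strands, so that it also appears as ATTAAC, and it is written in capitals. The windows lie at chr5:90460770-90460869 (plus strand), chr3:83026053-83026152 (plus strand) and chr3:83049864-83049963 (minus strand) of GRCm38.p6, and the motif begins 32, 43 and 29 bases before the start.
Alb: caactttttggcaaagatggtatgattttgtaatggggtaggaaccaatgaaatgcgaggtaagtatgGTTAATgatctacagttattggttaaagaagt
Fga: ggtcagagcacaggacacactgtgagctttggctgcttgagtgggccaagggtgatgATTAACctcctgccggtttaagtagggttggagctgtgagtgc
Fgb: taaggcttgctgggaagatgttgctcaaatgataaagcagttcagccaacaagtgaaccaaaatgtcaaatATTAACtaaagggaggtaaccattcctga
The same windows of *Ahsg* (chromosome 16) and *Apoa1* (chromosome 9) hold neither these letters nor TATAAA, and TATAAA was found in 0 of the 5. Over 32851 RefSeq promoters, GTTAAT occurs in 2.51% of windows of this length and TATAAA in 5.56%. A match of letters is a description of the sequence and does not show that a factor binds there.

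The 67 liver spots fell into 9 groups of touching spots on the array. Patch A held 29 spots in rows 62 to 72 of the array. Patches B and C held 16 and 13 spots and lay in nearly the same rows, 21 to 25 and 21 to 26. The 9 spots left over formed 6 smaller groups, 4 of them single spots. A core of 27 liver spots had only liver spots as neighbors under tissue, and the other 40 formed the edge.

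**Figure D1:**
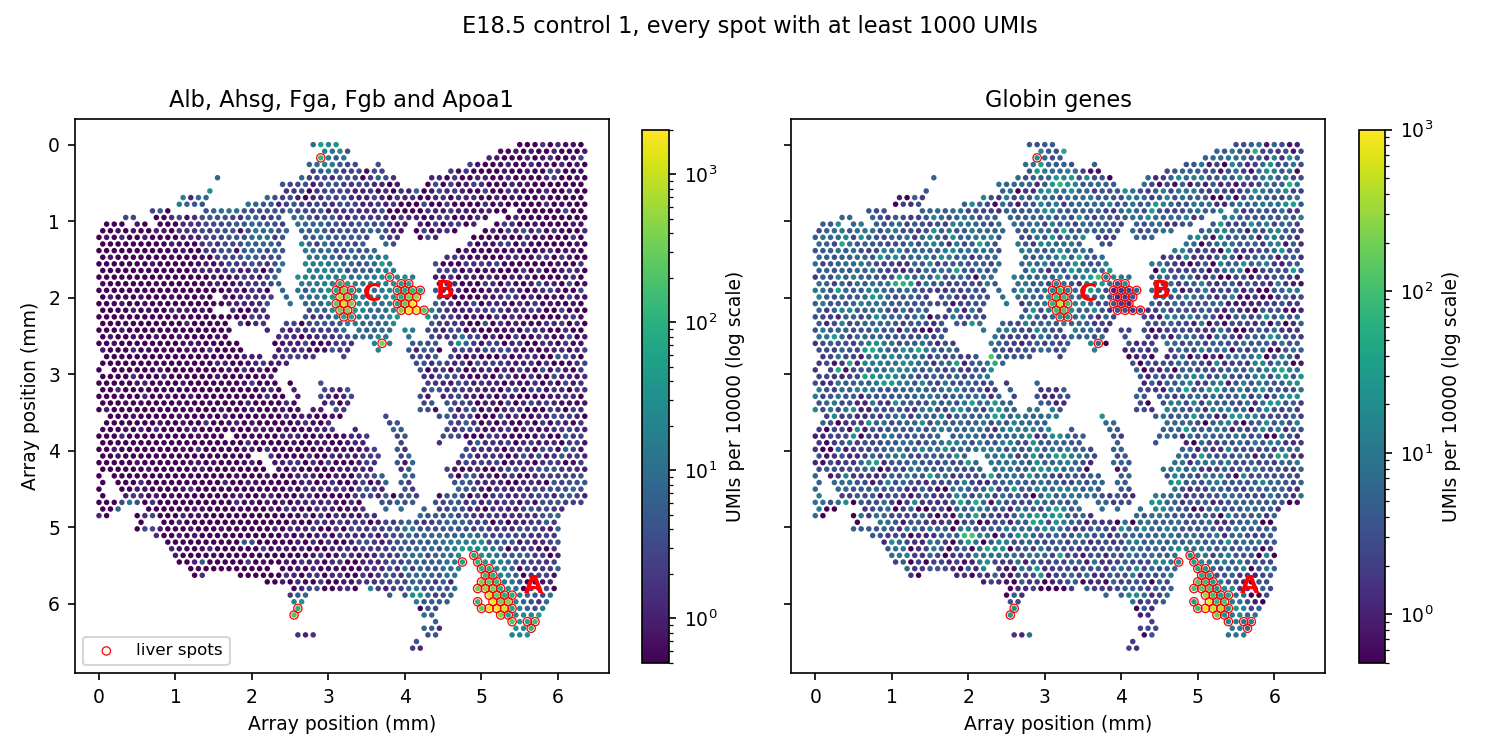
Every spot of E18.5 control 1 with at least 1000 UMIs at its position on the array (both axes in mm), colored by UMIs per 10000 on a log scale for the 5 genes of the rule (left) and for the globin genes (right). Red rings mark the 67 liver spots. Patches A, B and C stand out on the left, whereas on the right patch B is as dark as the muscle around it.

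The summed rate of the 5 genes ranged from 50.6 to 1934 UMIs per 10000 among liver spots, with a median of 206. It was at least 500 in 12 spots, at least 200 in 34 and under 100 in 23. The threshold lay in a continuous range, since the liver spots nearest to it had 50.6, 50.9 and 51.6 and the nearest spots left out had 49.9, 48.7 and 48.6. Among the 3393 other spots the median was 0.907, and 742 of them (21.9%) held no UMI of any of the 5 genes. Depth was similar, with a median of 28175 UMIs per liver spot (8231 to 65100) and 22896 per other spot. It differed between patches, with medians of 18372 UMIs per spot in patch A, 44194 in patch B and 36882 in patch C. After thinning to 5000 UMIs a liver spot showed a median of 2389 genes (2015 to 2829) and another spot 2155 genes (1751 to 2940, 41 shallower spots left out).

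Liver spots held 2.34% of the UMIs of the section but 82.6% of those of the 5 genes. *Alb*, the main carrier protein of plasma, stood at 26767 CPM (summed UMIs scaled to the depth of the spots) in liver spots and 142 in the other spots, a ratio of 188 (185 to 192). The ratio was 214 for *Ahsg*, the fetal plasma glycoprotein fetuin A, and 205 for *Apoa1*, the main protein of high density lipoprotein. It was 210 for *Fgb* and 226 for *Fga*, which encode chains of fibrinogen. These values follow from the rule and are no finding.

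Hepatocyte genes that the rule did not use were high in the same spots. Values for E18.5 control 1 compare summed UMIs of liver spots and of all other spots of 1 section, so no test was possible, and they are given as CPM ratios with exact 95% intervals for genes with at least 50 UMIs in all. Of 13125 such genes, 3.38% were at least 4-fold higher in liver spots (444 genes) and 0.274% at least 4-fold lower (36 genes), and the median ratio was 1.09. Because the 5 genes picked the spots, genes read in the same cells had to be high there, and nothing is read from these shares. Nor can the number of cells and the RNA per cell be told apart in a spot.

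Plasma proteins came first in number. Of 25 plasma protein genes, 24 were at least 4-fold higher, with a median ratio of 175. *Trf*, the iron carrier transferrin, had 18271 UMIs in liver spots and 4545 in the other spots (ratio 168, 163 to 174). *Ttr*, which carries thyroid hormone, had a ratio of 175 (166 to 186), and *Afp*, the albumin-related protein of the fetus, one of 159 (147 to 173). *Serpina1e*, of the family of alpha-1-antitrypsin, had a ratio of 183 (171 to 195), but the near-identical copies of this gene can share probes and are uncertain one by one. The exception was *Agt*, which encodes angiotensinogen, with a ratio of 2.94 (2.64 to 3.27) and 65.6 CPM in the other spots.

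Clotting, complement and lipoprotein genes followed. Of 13 coagulation and fibrinolysis genes, 12 were at least 4-fold higher, with a median of 199. *Plg*, the precursor of the clot-dissolving enzyme plasmin, had a ratio of 199 (176 to 225) and *Proc*, the anticoagulant protein C, one of 302 (193 to 495). *Pros1*, protein S, was the exception at 1.17 (0.942 to 1.45). Complement genes were more mixed, with 10 of 13 past 4-fold and a median of 39.3, since *Masp1*, *C1ra* and *C2* had ratios of 2.46, 2.45 and 2.60. The central component *C3* had a ratio of 39.3 (37.1 to 41.6), which was 25.9 without patch B. Of 19 lipoprotein and lipid genes, 15 were past 4-fold (median 155). *Apoa2* had a ratio of 182 (169 to 197), whereas *Apoe*, which macrophages and other cells also make, had one of 13.9 (13.1 to 14.8).

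Metabolic genes ranged from ratios near 1 to over 200. Of 15 genes of the urea cycle and amino acid breakdown, 11 were at least 4-fold higher (median 26.9). *Cps1*, which starts the urea cycle, had 1071 UMIs in liver spots and 231 in the other spots (ratio 194, 168 to 224, and 125 without patch B). *Ass1* of the same cycle had only 4 UMIs in liver spots. *Oat* and *Prodh*, of ornithine and proline breakdown, were near the level of the other spots, at 1.09 (0.946 to 1.24) and 0.814 (0.525 to 1.21). Of 12 genes of glucose and glycogen, 8 were past 4-fold (median 122), among them *Fbp1*, a step of gluconeogenesis, at 195 (166 to 231).

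Genes of bile acids and drug metabolism were read at lower counts. *Slc10a1*, which takes bile acids up from blood, had 182 UMIs in liver spots and 31 elsewhere (ratio 245, 167 to 372), and *Abcb11*, which exports them into bile, had 85 and 19 (ratio 187, and 106 without patch B). *Cyp7a1*, the rate-limiting enzyme of bile acid synthesis, had 48 and 23. Of the cytochrome P450 genes, *Cyp3a11* had 69 and 13 UMIs (ratio 222, and 126 without patch B) and *Cyp2e1* 36 and 17. *Cyp1a2* and *Cyp2c29*, both prominent in adult liver, had 0 UMIs in liver spots, which allows up to 3 UMIs. Outside the lists, the highest ratios among genes with at least 100 UMIs in liver spots belonged to the cytochrome gene *Cyp2c68* at 334 (198 to 602), to *Uox*, the urate oxidase, at 267 (216 to 333) and to *Tff3*, a trefoil peptide, at 257 (201 to 332), which was 131 without patch B.

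Transcription factors behaved less evenly. Of 10 hepatocyte factors with enough UMIs, 4 were at least 4-fold higher and the median ratio was 1.88. *Hnf4a*, the central regulator of hepatocyte identity, had 84 UMIs in liver spots and 15 elsewhere (ratio 234, 134 to 437). *Cebpa* had a ratio of 14.7 (12.2 to 17.6) and *Creb3l3*, a factor of lipid metabolism, one of 54.9 (38 to 79.8). *Cebpb*, *Prox1* and *Ppara*, which are also expressed in muscle or vessels, had ratios of 1.04, 1.73 and 1.70, and *Tbx3* had one of 0.524 (0.362 to 0.734).

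**Figure D2:**
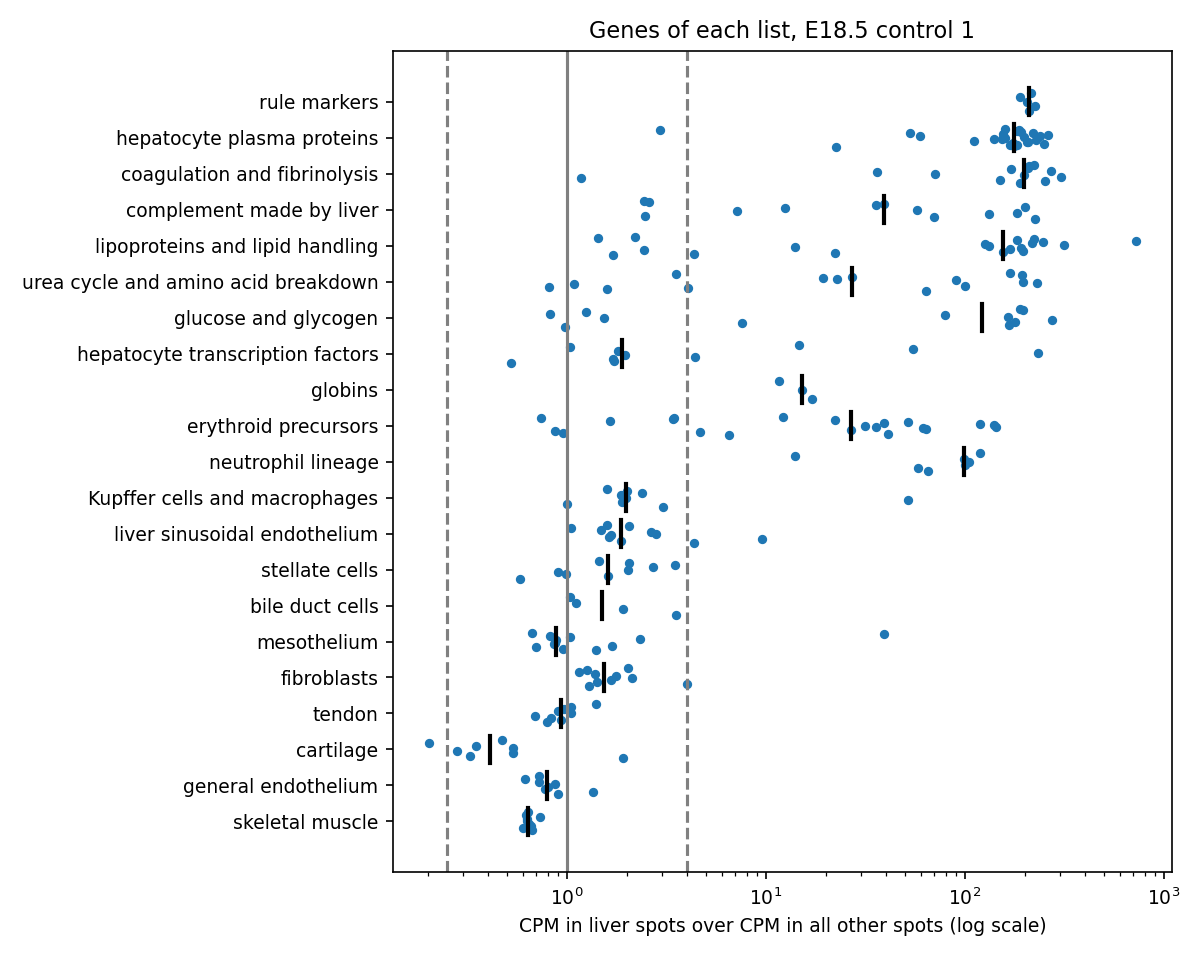
Ratio of CPM in the 67 liver spots to CPM in the 3393 other spots of E18.5 control 1 (log axis), 1 point per gene with at least 50 UMIs, by gene list, with the list's median as a black bar. Dashed lines mark 4-fold either way. Medians are 175 for plasma proteins, 199 for coagulation, 155 for lipoproteins and 98.6 for neutrophil genes, but 1.88 for hepatocyte transcription factors and 0.642 for skeletal muscle.

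Blood-forming cells were read in the liver spots as well. The 3 globin genes with enough UMIs were all more than 4-fold higher. *Hbb-bs*, an adult beta globin, had 12612 UMIs in liver spots and 34689 in the other spots (ratio 15.2, 14.9 to 15.5), and *Hba-a2*, an adult alpha globin, had a ratio of 11.6 (11.2 to 12). *Hbb-bs* and *Hbb-bt* are near-identical and cannot be told apart with certainty. Embryonic globins were at the limit of detection, with 1 UMI each of *Hba-x* and *Hbb-y* and 0 of *Hbb-bh1*.

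Red cell precursors gave 15 of 21 genes past 4-fold (median 26.6). *Slc4a1*, the anion exchanger of the red cell membrane, had a ratio of 63.5 (43.6 to 93.5) and *Hemgn*, a nuclear protein of erythroblasts, one of 118 (82.6 to 173). *Ank1*, the most abundant gene of this list, is an erythroid ankyrin that muscle also makes, and had a ratio of 0.743 (0.696 to 0.792). All 7 neutrophil genes with enough UMIs were past 4-fold (median 98.6). *S100a9* had 871 UMIs in liver spots and 557 elsewhere (ratio 65.3, 58.7 to 72.8), and *Ngp* and *Camp*, which encode proteins of neutrophil granules, had ratios of 105 and 119 (159 and 179 without patch B). Of 5 megakaryocyte genes 0 were past 4-fold, where 3.38% of all genes were, so nothing is read from this count. *Pf4* had a ratio of 1.68 (1.49 to 1.89).

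Median ratios for other cells of the liver were 1.99 for Kupffer cells and macrophages and 1.88 for sinusoidal endothelium. They were 1.60 for stellate cells and 1.51 for bile ducts. As 3.38% of all genes were past 4-fold, nothing is read from the small counts below. Of 9 Kupffer cell and macrophage genes only *Cd5l* was past 4-fold, at 51.8 (29.6 to 91.5). *Marco* and *Clec4f*, with fewer UMIs than the minimum, had 21 against 6 and 13 against 4, whereas the general macrophage gene *C1qa* had a ratio of 2.01 (1.76 to 2.29). Of 11 genes of sinusoidal endothelium, *Oit3* and *Stab2* were past 4-fold, at 9.54 and 4.33, and of 9 stellate cell genes and 4 bile duct genes none was. The bile duct keratins *Krt7* and *Krt19* had ratios of 1.11 and 1.04 (1.67 and 1.57 without patch B). Of 13 mesothelium genes only *C3* was past 4-fold, which hepatocytes make, and *Msln*, mesothelin, had a ratio of 0.875 (0.663 to 1.13). All 15 genes of cell division were higher, between 1.23 and 2.09, and none past 4-fold, where 62.2% of all genes compared had a ratio above 1 and 37.8% one below 1. *Mki67* was highest, at 2.09 (1.89 to 2.30).

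Every liver spot also held muscle RNA, at 126 UMIs per 10000 or more. Skeletal muscle genes made up 78315 CPM of liver spots and 122595 CPM of the other spots, a ratio of 0.639 (0.636 to 0.642), and all 9 were lower, between 0.604 (*Tnnt3*, fast troponin T) and 0.733 (*Des*, desmin). The 12 spots with the highest liver rates had a median of 317 muscle UMIs per 10000, against 1314 in the other spots, and 5 liver spots lay above that median. All 10 fibroblast genes were higher (62.2% of all genes), from 1.15 (*Col1a1*) to 4.0 (*Pi16*). Cartilage genes were lower in 7 of 8 (37.8% of all genes), with *Col2a1*, the cartilage collagen, at 0.202 (0.180 to 0.225). By these markers the spots hold liver RNA beside muscle and connective tissue RNA. Whether both tissues lay under a spot or RNA had spread was not tested.

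Values of single spots are given as a description, since the rate of the 5 genes chose the spots and genes of the same cells had to vary with it. Over the 67 liver spots of this section, Spearman's rho between the 5 genes and the other plasma proteins was 0.987, and it was 0.956 for coagulation genes and 0.951 for lipoprotein genes. It was 0.474 for globins, 0.240 for red cell precursors, 0.613 for neutrophil genes and -0.616 for muscle genes (-0.880 over the 27 core spots). Globins and red cell precursors gave 0.685. These spots share a library, and the rates share a total, which ties them to each other in part. The rate of the 5 genes and the depth of a spot gave 0.126.

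The rate of the 5 genes fell with distance but did not end at the border of the liver spots. The rule drew this border by the same rate, so the step across it is no finding. The rate was 1169 UMIs per 10000 in the 11 liver spots deeper than 250 μm, 726 at 150 to 250 μm and 184 in the 40 edge spots. Outside, it was 24.1 within 150 μm, 6.75 at 250 to 350 μm, 2.84 at 500 to 1000 μm and 0.395 beyond 2000 μm. Neutrophil genes were at 17.9 in the deepest liver spots, 1.36 just outside, 0.202 at 500 to 1000 μm and 0.139 beyond 2000 μm. Globins, in contrast, fell from 261 to 11.4 just outside and then stayed between 5.50 and 7.09 at all distances from 150 μm outward. Muscle genes were at 469 in the deepest liver spots and 1293 beyond 2000 μm.

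**Figure D3:**
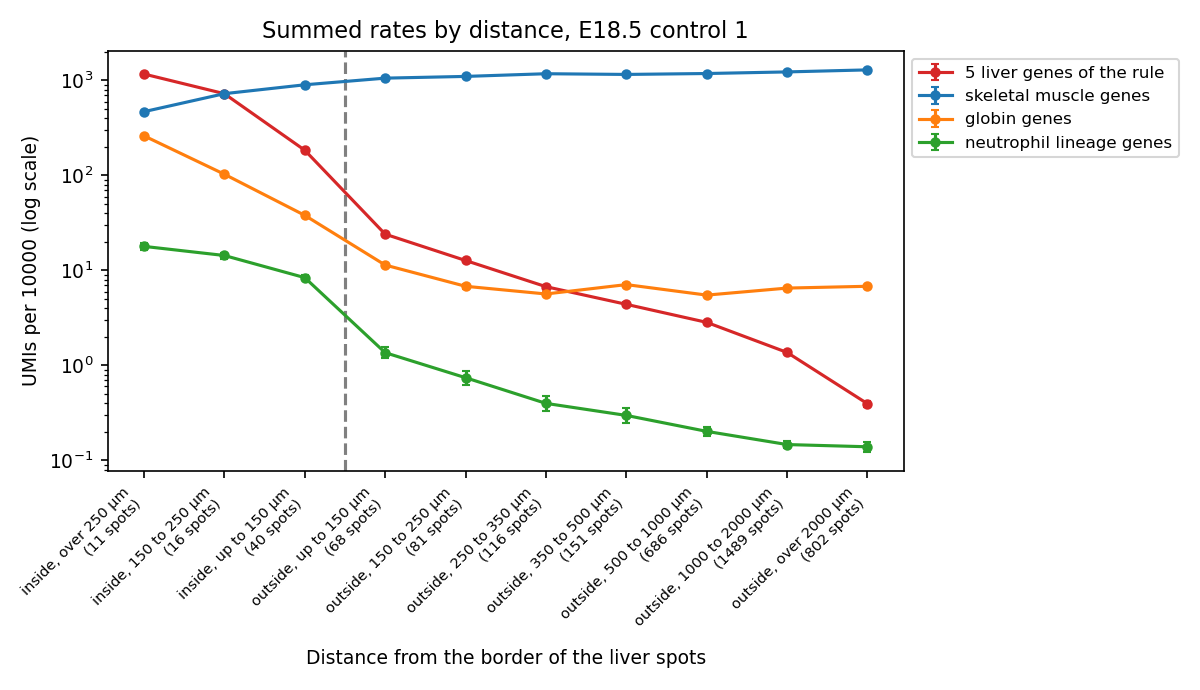
UMIs per 10000 (log axis) of 4 gene groups in E18.5 control 1, summed over the spots at each distance from the border of the liver spots (dashed line, liver spots to its left, number of spots in parentheses). Bars are exact 95% counting intervals, mostly smaller than the points. The 5 liver genes fall from 1169 to 0.395, whereas globins level off near 6.

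Far from the liver spots the 5 genes had proportions near those of all liver spots summed. *Alb* took 54.5% of their UMIs in liver spots and 57.0% in the 2291 spots beyond 1000 μm, and *Ahsg* 18.9% and 17.9%. *Apoa1* took 12% and 11.6%, *Fgb* 7.91% and 7.17% and *Fga* 6.66% and 6.36%. The liver patches differed among themselves, with *Alb* at 57.8% in A, 49.6% in B and 58.6% in C. These are the genes of the rule, so nothing is read from their proportions. Whether RNA had spread across the section was not tested.

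Patch B differed from patches A and C in its blood cell genes. Globins reached 3.78 UMIs per 10000 in patch B (single spots 1.01 to 19.1, median 2.62), 189 in patch A (13.4 to 797, median 85.0) and 117 in patch C (median 72.4, highest spot 615). The medians of A and C lay above every spot of patch B, and the median of B lay under that of the other spots of the section (4.12). The 5 genes of the rule were at 628 UMIs per 10000 in patch B, 535 in A and 381 in C. In the single spot of patch B with the most liver RNA they reached 1871 per 10000 and globins 1.14. In the corresponding spot of patch A they reached 1934 and globins 557.

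Several genes of blood cells were at 0 in patch B. *Ngp* had 0 UMIs in its 16 spots, 111 in patch A and 231 in patch C. *Slc4a1* and *Ermap* of red cell precursors, the neutrophil protease gene *Elane*, and *Cd5l*, *Marco* and *Clec4f* of Kupffer cells also had 0, where patch A had 48, 55, 17, 23, 18 and 12 UMIs and patch C 25, 17, 11, 8, 2 and 1. For *Marco* and *Clec4f* patches B and C cannot be told apart at this depth. *Hbb-bs* had 168 UMIs in patch B, 8218 in A and 4042 in C. *S100a9* had 108 UMIs in B, 254 in A and 482 in C, and per 1000 UMIs of the 5 genes it was at 2.62 in B, 7.83 in A and 25.5 in C. *Lcn2*, which hepatocytes can also make, differed less, with 82, 53 and 54 UMIs and 1.99, 1.63 and 2.85 per 1000. Patch C had the most neutrophil genes, at 25.1 UMIs per 10000, against 11.3 in A and 3.59 in B.

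Hepatocyte genes differed too, once divided by the liver UMIs of a patch. Rates are given per 1000 UMIs of the 5 genes, and the comparison was chosen after the globin values had been seen. *Pck1*, the rate-limiting enzyme of gluconeogenesis, had 115 UMIs in patch B, 1 in A and 2 in C, which is 2.79 per 1000 against 0.0308 and 0.106. These UMIs came from 12 of the 16 spots of B. *Hp*, the hemoglobin-binding haptoglobin, stood at 13 per 1000 in B, 1.14 in A and 2.75 in C, and *Cp*, the copper protein ceruloplasmin, at 8.39, 1.82 and 1.48. The largest ratios after *Pck1* belonged to *Serpina3m*, a serine protease inhibitor (3.32, 0.0616 and 0.211), and to *Apoc3*, an inhibitor of lipoprotein lipase (1.65, 0.0616 and 0.158).

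Compared in this way were 233 genes at least 4-fold higher in liver spots, with at least 50 UMIs over patches A, B and C. Of these, 8 were at least 4-fold higher in B than in A and C together, 25 at least 4-fold lower and 200 between. The median ratio was 1.0. Some genes passed the minimum through B alone, such as *Pck1* and *Serpina3m*, and others through A and C alone, such as *Ngp*. Nothing is therefore read from these counts. The 8 were *Pck1*, *Serpina3m*, *Apoc3*, *Serpina3n*, *Apoa5*, *Hp*, *Akr1b7* and *Cp*, with ratios from 47.7 (15.9 to 235) to 4.95 (3.90 to 6.34). Among the 25 were globins and genes of red cell precursors and neutrophils, but also *Pklr*, the pyruvate kinase of liver and red cells (ratio 0.108, 0.0384 to 0.248), and the cytochrome gene *Cyp2c69* (0.0519, 0.00611 to 0.198).

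Abundant plasma proteins shifted by less than 4-fold in either direction. *Trf* was at 238 per 1000 in patch B, 159 in A and 155 in C, and *Igfbp1*, which binds insulin-like growth factors, at 26.2, 10.3 and 11.8. *Ttr* was lower in B, at 46.0, against 83.3 and 79.5. *Serpina1e* was also lower, at 28.3, against 64.0 in A and 72.6 in C, but this copy is uncertain. The ratio of B to A and C was 0.422 for it and 1.01, 1.05, 1.03 and 0.868 for *Serpina1a*, *Serpina1b*, *Serpina1c* and *Serpina1d*. *Afp* differed little, at 25.8, 29.9 and 31.9.

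Other tissue moved with patch B. Tendon genes were at 14.1 UMIs per 10000 in B, 6.05 in A and 5.09 in C, and *Tnmd*, tenomodulin, had 158, 15 and 22 UMIs. Cell division genes were at 5.92, 13.9 and 9.21. Muscle genes were similar, at 834, 700 and 822. Their part in the difference between patches was not tested. The summed globin ratio of liver spots to other spots was 14.2 with patch B and 21.2 without it.

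**Figure D4:**
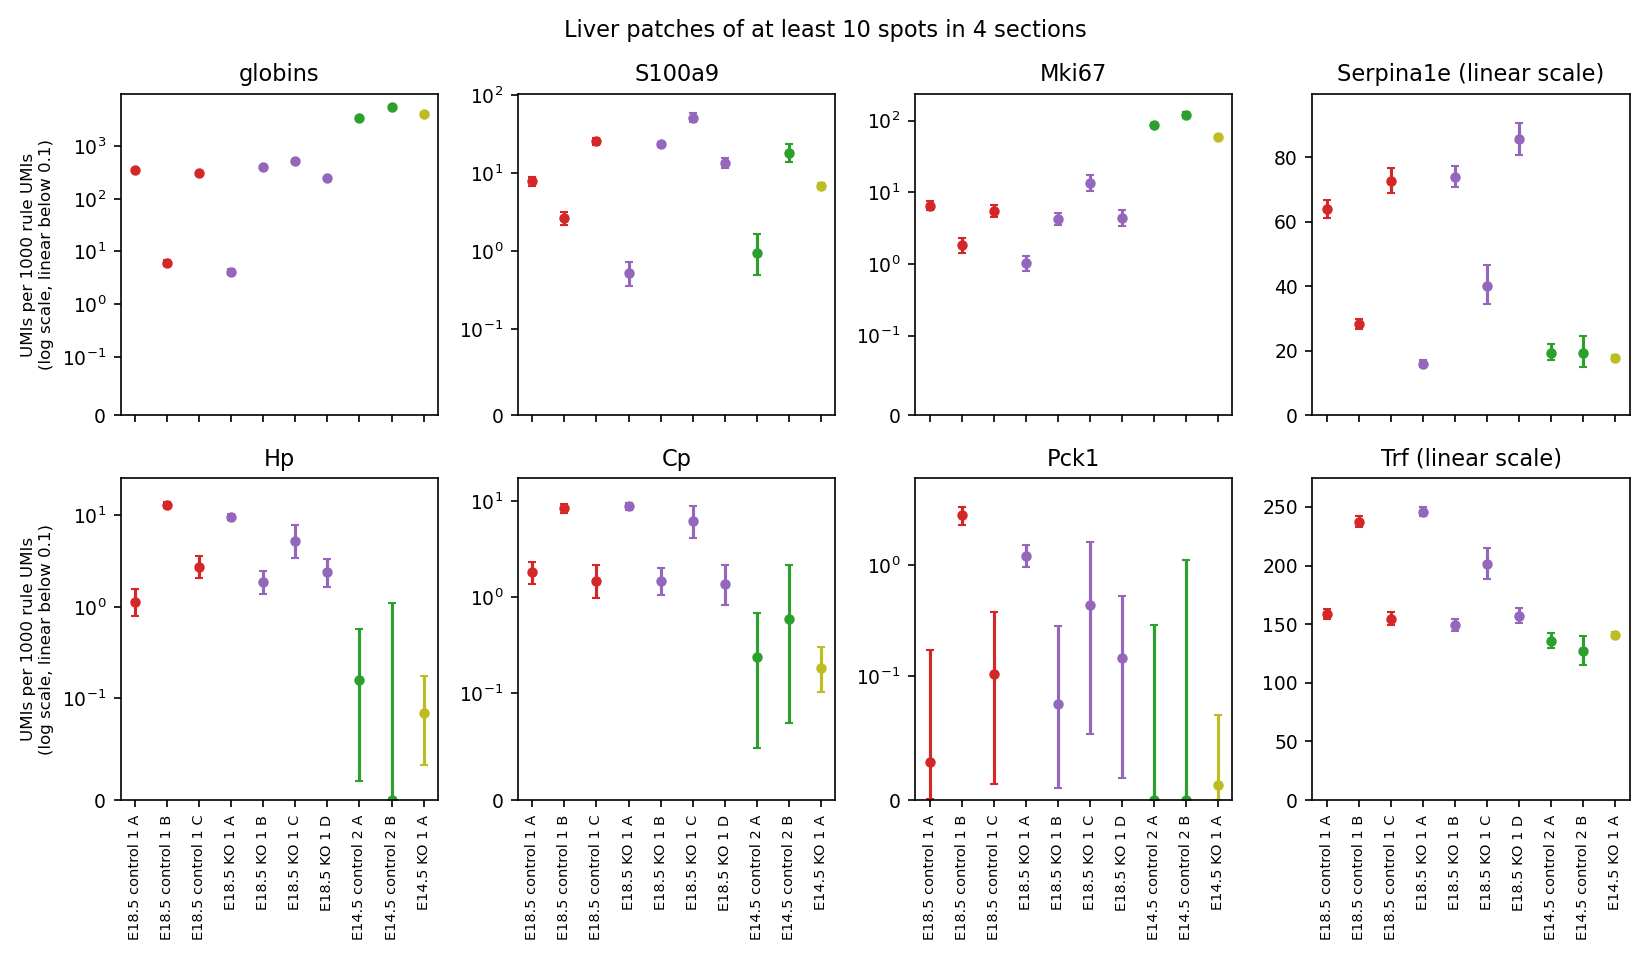
UMIs per 1000 UMIs of the 5 liver genes, for globins and 7 genes in every liver patch of at least 10 spots in 4 sections (x axis, colored by section), with exact 95% counting intervals. Axes are logarithmic above 0.1 except for Serpina1e and Trf. Patch B of E18.5 control 1 and patch A of the E18.5 KO are low in globins, S100a9, Mki67 and Serpina1e and high in Hp, Pck1 and Trf, against the other patches of the same section. Serpina1e has near-identical copies and is uncertain.

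A patch with few blood cell genes was also present in the KO at E18.5, whose 102 liver spots formed 4 patches of at least 10 spots (A to D, with 34, 23, 17 and 16 spots). Patch A of the KO had 4.09 globin UMIs per 1000 of the 5 genes, against 396, 522 and 249 in patches B, C and D. It was picked for this low value, so globins are no support here, but the hepatocyte genes were not used to pick it. *Pck1* was at 1.21 per 1000 in this patch and at 0.0780, 0.442 and 0.146 in the others. *Hp* was at 9.66, against 1.87, 5.30 and 2.41, and *Trf* at 246, against 149, 202 and 157. *Serpina1e* was again lower, at 16, against 74.0, 40.2 and 85.6. Against patches B, C and D summed its ratio was 0.216, and those of the copies *Serpina1a* to *Serpina1d* lay between 0.633 and 1.06.

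The 8 genes higher in patch B of the control were all higher in patch A of the KO than in its patches B, C and D summed, with ratios from 1.17 (*Apoc3*, 0.748 to 1.86) to 8.86 (*Pck1*, 3.89 to 24.9) and a median of 4.0. *Apoc3* was not higher than in each of them, at 0.881 per 1000 in patch A and 1.02 in patch D. Of the 200 genes that were neither 4-fold higher nor lower in the control, 140 (70%) were also higher in this patch of the KO, so direction alone says little for a single gene. Patch C of the KO, which had the most globins of the 4 patches, lay nearest to patch A in *Pck1*, *Hp*, *Trf* and *Serpina1e*. It also lay close to patch A in *Cp*, at 6.19 per 1000 against 8.85. Among the KO patches these genes thus did not follow the order of globins. With 1 patch low in globins in each of 2 sections of different genotype, no test was made.

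The same rule was applied to the other 7 sections. It found 56 of 842 spots (6.65%) in E14.5 control 2, 13 of 683 in E14.5 control 3, 46 of 892 (5.16%) in the E14.5 KO, 102 of 1331 (7.66%) in the E18.5 KO and 3 of 2157 in the β-cat cKO. In E14.5 control 1 it found 0 of 813 spots, which allows a share of up to 0.369% (3 spots, the limit used for a count of 0), and in E18.5 control 2 it found 0 of 2525, which allows up to 0.119%. The highest spot of E18.5 control 2 had 1.48 UMIs per 10000 of the 5 genes. Liver spots of an E18.5 control were therefore measured in 1 section only.

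Hepatocyte and blood cell genes were tested in the 3 sections that the rule for E18.5 control 1 had not used and that held at least 20 liver spots, namely E14.5 control 2 and the KO at both stages. UMIs were summed over liver spots and over other spots of each section and tested in edgeR by quasi-likelihood. Each section was a block, and the 5 genes were left out of all counts. Liver spots were higher for 4.30% of 13640 genes (587) and lower for 0.227% (31) at a Benjamini-Hochberg adjusted p under 0.05. The 5 genes also picked the spots in these sections, so genes of the same cells had to follow. The p-values measure the spread between 3 sections that differ in stage and genotype.

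Plasma protein genes were higher in 24 of 25, coagulation genes in 14 of 15, complement genes in 11 of 14 and lipoprotein genes in 17 of 20. *Trf* was higher by a log2 fold change of 5.71 ± 0.70 (SE, 3 sections, edgeR adjusted p = 0.0118), and *Afp* by 5.92 ± 0.76 (edgeR adjusted p = 0.0129). Hepatocyte transcription factors were higher in 11 of 19, and *Hnf4a* had a log2 fold change of 6.26 ± 0.72 (edgeR adjusted p = 0.0109). Genes of the urea cycle and amino acid breakdown were higher in 11 of 19, but *Cps1* did not pass, at 4.32 ± 1.48 (edgeR adjusted p = 0.172). *Fbp1* did not pass either, at 5.35 ± 1.60 (edgeR adjusted p = 0.132), and both of these had few UMIs in the E14.5 sections.

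Blood cell genes were higher in these sections as well. All 12 neutrophil genes tested were higher, among them *S100a9* with a log2 fold change of 4.78 ± 0.46 (edgeR adjusted p = 0.00982). Red cell precursor genes were higher in 18 of 22 and globins in 4 of 6, with *Hbb-bs* at 5.01 ± 0.70 (edgeR adjusted p = 0.0172). Of 12 Kupffer cell and macrophage genes 4 were higher, led by *Clec4f*, a lectin of Kupffer cells, at 6.22 ± 0.50 (edgeR adjusted p = 0.00982). Of 13 sinusoidal endothelium genes 4 were higher, and *Stab2* had a log2 fold change of 2.80 ± 0.62 (edgeR adjusted p = 0.0702). At an unadjusted p under 0.05, edgeR had 11.5% of all genes higher and 10.3% lower, and DESeq2 at its adjusted p had 7.43% higher and 2.79% lower. By edgeR 0 of 9 megakaryocyte genes passed (4 higher at an unadjusted p under 0.05, 2 higher by DESeq2). For megakaryocyte genes with at least 50 UMIs, the median ratio was 16.9 in the E14.5 KO (10 genes). It was 2.44 in E14.5 control 2 (7 genes) and 0.850 in the E18.5 KO (4 genes), and the difference between sections was not tested. Of 15 cell division genes 0 passed by edgeR (5 higher at an unadjusted p under 0.05, 1 by DESeq2). Of 9 skeletal muscle genes 0 passed, but 9 were lower at an unadjusted p under 0.05 and by DESeq2, and *Acta1*, skeletal actin, had a log2 fold change of -1.48 ± 0.44 (edgeR adjusted p = 0.133). Of the genes at least 4-fold higher in E18.5 control 1, 418 were tested here and 290 were higher (4.30% of all genes tested). The same 5 genes picked the spots in all 4 sections, so this overlap had to follow and is no support.

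Liver spots of the 4 sections with at least 20 of them were then set side by side by stage, as UMIs per 1000 *Alb* UMIs. Each stage is 1 control and 1 KO section. Both E14.5 files were made with Space Ranger 2.0.0 and both E18.5 files with 2.0.1. Stage and version therefore cannot be told apart among these 4 sections, and no test was made. E14.5 control 3, made with 2.0.1, held 13 liver spots, under the minimum of 20, and was not compared.

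Plasma proteins were present at both stages in different proportion. *Afp* had 147 UMIs per 1000 *Alb* UMIs in E14.5 control 2 and 111 in the E14.5 KO, but 52.8 in E18.5 control 1 and 45.7 in the E18.5 KO. *Trf* had 211 and 212 at E14.5 and 352 and 355 at E18.5 (270 and 269 without the patch low in globins). Against *Alb* the stages did not overlap for *Afp* and *Trf*, which moved in opposite directions. Per 10000 UMIs they overlapped for *Afp*, at 7.95 to 19.3 in the E14.5 patches and 6.61 to 43.6 in the E18.5 patches.

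Several enzymes were close to absent at E14.5. *Cps1* had 0.359 and 0.678 UMIs per 1000 *Alb* UMIs at E14.5 and 20.7 in both sections at E18.5. *Fbp1* had 0.0717 and 0.125 at E14.5 and 16.2 and 15.7 at E18.5, and *Uox* 0.359 and 0.446 against 12.3 and 13. *Hp* had 0.359 and 0.125 at E14.5 and 12.2 and 11.2 at E18.5. Enzymes that liver turns on around birth were at or near 0 at E14.5, with 0 UMIs of *G6pc* and *Cyp2e1* in both sections and 0 and 1 of *Pck1*, whereas E18.5 control 1 had 31, 36 and 118 UMIs and the E18.5 KO 59, 127 and 83. *Pklr* went the other way, from 35.1 and 37.0 per 1000 *Alb* UMIs to 1.49 and 1.52.

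Some E18.5 values rested on the patch low in globins, patch B of the control and patch A of the KO. Without it, *Hp* had 3.06 UMIs per 1000 *Alb* UMIs in E18.5 control 1 and 4.11 in the E18.5 KO. *Pck1* had 3 and 6 UMIs left, and *G6pc* 7 and 12. *Uox* was at 9.44 and 8.12 per 1000 *Alb* UMIs and *Pklr* at 2.26 and 2.47. *Fbp1* moved less, to 13.7 and 16.1.

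Globins differed by stage when set against *Alb*. *Hbb-bs* had 4184 and 4182 UMIs per 1000 *Alb* UMIs at E14.5 and 243 and 162 at E18.5 (397 and 373 without the patch low in globins). Per 10000 UMIs the stages overlapped, with *Hbb-bs* at 222 to 765 in the E14.5 patches and 307 in patch B of the E18.5 KO. Globins of the other spots were also higher at E14.5 (2837 and 1768 CPM) than at E18.5 (649 and 381 CPM). Whether blood formation in the liver or circulating blood differed was not tested. The embryonic globin *Hbb-bh1* had 25 and 280 UMIs in the E14.5 sections and 0 and 1 in the E18.5 sections. *S100a9* had 18.7 and 11.1 per 1000 *Alb* UMIs at E14.5 and 16.8 and 17.2 at E18.5, where the stages overlapped. It varied more between patches of 1 section, with 0.947 and 18.2 UMIs per 1000 of the 5 liver genes in patches A and B of E14.5 control 2, so no order of the stages is read from it. Without the patch low in globins the E18.5 values were 24.3 and 39.0, both above the E14.5 values, for which no patch was left out.

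*Mki67*, a gene of dividing cells, had 144 and 89.5 UMIs per 1000 *Alb* UMIs at E14.5 and 8.10 and 4.98 at E18.5 (11 and 9.26 without the patch low in globins). This gene is not particular to liver, and the summed ratio of cell division genes in liver spots to other spots was 1.35 in E14.5 control 2 and 1.79 in the E14.5 KO, and 1.69 in E18.5 control 1 and 1.07 in the E18.5 KO. The 5 liver genes were at 94.1 and 79.3 UMIs per 10000 in the patches of E14.5 control 2 and 269 in that of the E14.5 KO, against 381 to 628 in E18.5 control 1 and 188 to 1252 in the E18.5 KO, and how much of the *Mki67* value came from the diaphragm was not tested.

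**Figure D5:**
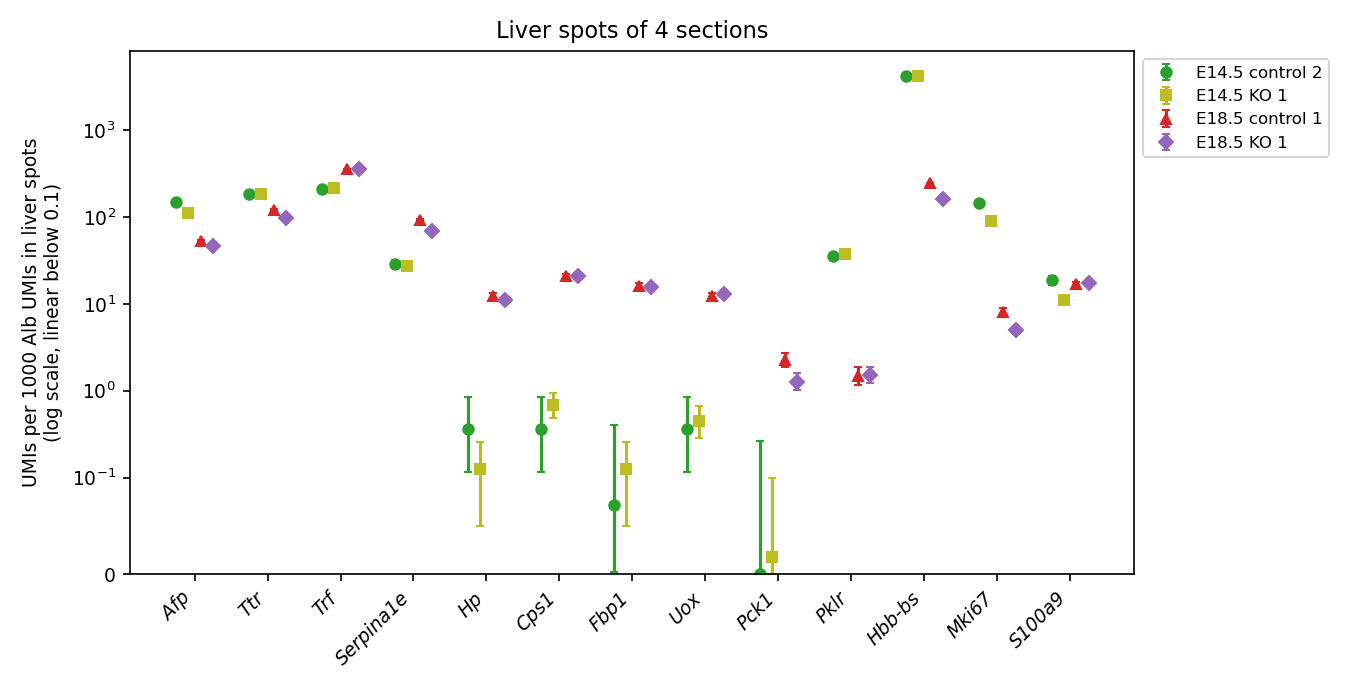
UMIs of 13 genes per 1000 Alb UMIs (log axis above 0.1) in the liver spots of 4 sections, with 56, 46, 67 and 102 liver spots in the order of the legend and exact 95% counting intervals. Green and olive points are E14.5, red and purple points E18.5. Hp, Cps1, Fbp1, Uox and Pck1 are higher in both E18.5 sections, whereas Pklr, Hbb-bs and Mki67 are higher in both E14.5 sections.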

How the data were processed

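Per the labels and file headers, the authors made whole-number UMI counts per gene and spot with Space Ranger (2.0.0 for E14.5 controls 1 and 2 and the E14.5 KO, 2.0.1 for the other 5 sections) on mm10 with the mouse probe set, and deposited these counts without normalization. The sections hold 14179161 to 82859104 UMIs. Scores of spatial enrichment that the authors also deposited were not used. Spots with under 1000 UMIs were left out. Barcodes are array positions and recur between sections, 561 to 2153 of them with E18.5 control 1, so spots were identified by section and barcode. All columns were mapped to a sample, and 0 were left without one.

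UMIs of liver spots and of other spots were summed, and gene ratios compared as CPM with exact conditional intervals (scipy 1.17.1, Python 3.11.15). Genes listed at 0 were compared against a floor of 3 UMIs. For 3 other sections the sums were tested with edgeR 4.0.16 in R 4.3.3 (filterByExpr, TMM, quasi-likelihood F test). The section was a block because both sums of a section come from the same tissue. Deviations of both sums correlated at 0.561, 0.614 and 0.76 within the sections over 10317 genes. Between the E14.5 sections they correlated at 0.308 and 0.330, and across stages between -0.710 and -0.475. Stage and section are therefore not told apart in these values. Scripts for this test were tested on simulated data.

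The liver spots, the 38 gene lists and the tests were chosen with earlier results of these data known. Named were the 5 genes, up to 4 genes per list with the most UMIs in liver spots, defining genes at 0, and outside the lists the 20 highest ratios among genes with at least 100 UMIs in liver spots and the 10 lowest among genes with at least 2000 in the other spots. Other named genes, the comparison of patch B and the stage values without the patch low in globins were chosen after their values were seen. Alternatives were other thresholds, minimum counts, folds, scalings, spot sets, DESeq2 1.42.0, no block, no filter and each section left out. Promoters and their positions are RefSeq (GRCm38.p6), matched by symbol for 5 of the 5 genes. Some genes of the lists are not reported here.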

Additional observations from a re-analysis of the deposited data

Results flagged for a closer look

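The ratio of liver spots to other spots turned in opposite directions at the 2 stages for 5 of the named genes. These 5 were picked for this turn from among all the named genes. The share of all genes that turn in this way is not given here, so nothing is read from the count of 5. Each value is 1 section, so the difference between stages was not tested. *Ank1*, an ankyrin of red cells and muscle, had ratios of 1.34 in E14.5 control 2 and 2.52 in the E14.5 KO, but 0.743 in E18.5 control 1 and 0.379 in the E18.5 KO. *Fth1*, the heavy chain of ferritin, had 1.66 and 2.08 at E14.5 and 0.921 and 0.831 at E18.5. *Col1a1* and *Col3a1*, collagens of fibroblasts, went the other way. *Col1a1* had 0.908 and 0.690 at E14.5 and 1.15 and 1.24 at E18.5, and *Col3a1* had 0.801 and 0.624 against 1.38 and 1.13. *Ecm1*, an extracellular matrix protein, had 0.603 and 0.500 at E14.5 and 2.06 and 1.45 at E18.5. With TMM scaling all 20 values kept their side of 1, but *Col1a1* in E18.5 control 1 came to 1.02.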

How the results depend on the processing

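The number of liver spots depended on the threshold. At 25, 100 and 200 UMIs per 10000 there were 102, 44 and 34, and without *Alb* in the rule 39. In the other sections, a threshold of 25 gave 2, 93 and 29 liver spots in E14.5 controls 1, 2 and 3. One of 100 gave 28 and 5 in E14.5 controls 2 and 3 and 1 in the cKO, and one of 200 gave 3, 2 and 1 in these sections, 25 in the E14.5 KO and 53 in the E18.5 KO. In place of the 444 genes at least 4-fold higher in liver spots and the 36 genes at least 4-fold lower in liver spots, there were 1224 and 260 at 2-fold, 284 and 1 at 8-fold, and 718 and 76 for core spots. A minimum of 20 UMIs gave 832 higher genes and a minimum of 1 UMI 2204, spots at 200 or more gave 63 lower genes and a mean over spots 55. The log2 TMM factors of liver spots over other spots, by which ratios are divided, were 0.17 in E18.5 control 1 and -0.32 in the E14.5 KO, and 31 of the 38 list ratios then moved by more than counting error. The correlation of liver and muscle genes was -0.880 in core spots.

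In the 3 other sections the fit without the replicate block found 241 genes higher and 0 lower with edgeR (1047 and 342 at an unadjusted p under 0.05). Of 61 named genes called with the block, 36 lost the call without it. DESeq2 found 1090 higher and 410 lower, and no filter on low counts 768 and 203. Leaving out 1 section gave 393 to 808 higher and 5 to 310 lower. The 310 came without E14.5 control 2, and 8 and 5 without the E14.5 KO and the E18.5 KO. Named genes lost the call in 1, 8 and 14 cases in the same order. The cause of these differences was not tested. Counts of genes that differ in patch B stayed within 1.5 times in each alternative, all chosen after seeing the data.

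The limits are depth and sampling. Liver spots of E18.5 control 1 hold 1936633 UMIs, so a gene at 0 there is only bounded at 3 UMIs. All liver spots of an E18.5 control come from 1 section, and each mutant group is 1 section.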

Other observations

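Defining genes of neighboring organs had few UMIs in the liver spots. *Sftpc* of lung epithelium and *Cyp11a1*, which starts steroid synthesis in the adrenal cortex, had 0, and *Gkn1* of stomach had 2. *Cyp17a1*, a steroid enzyme of the adrenal list, had 8 UMIs in liver spots, of which 7 lay in patch B, and 3 in the other spots. The heart myosin genes *Myl7* and *Myh6* had 3 UMIs each in liver spots and 1000 and 1112 in the other spots, but *Tnnt2*, a troponin that fetal skeletal muscle also makes, had 812 and 48242.

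Periportal genes of the liver differed between patches, without a test. Per 100 UMIs of the 5 liver genes, they were at 2.86 in patch B, 1.52 in A and 1.39 in C. Pericentral genes were at 0.446, 0.388 and 0.734, and muscle genes at 133, 131 and 216. The summed ratio of pericentral genes in liver spots to other spots was 1.05 (0.960 to 1.15), so no difference between liver zones is read from them. *Cyp2e1*, a pericentral enzyme, had 9, 10 and 14 UMIs in B, A and C.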
